A study of Mus musculus with 6 samples.

Results

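The collagen genes were the protein-coding rows of the deposited table whose GENCODE M21 symbol has the form Col, a number, a and a number. They were 39 of 20533 genes in the table, of which 15972 were protein-coding, and were chosen by name and not by their values. The annotation holds 44 such genes, and the other 5 (Col2a1, Col6a6, Col9a1, Col19a1 and Col26a1) are not analysed here. The chains were set in 3 classes. The fibrillar class held 10 genes, the basement membrane class 8 (the type IV chains and the multiplexins Col15a1 and Col18a1), and the other class 21. Bulk RNA was sequenced from distal colon at day 7. The mice were C57BL/6, wild type, male and 7 weeks old in every group. The 3 groups held 2 libraries each: mice on water, mice on 2% dextran sulfate sodium (DSS, a polymer given in drinking water that damages the gut lining), and mice on 2% DSS together with Montmorillonite powder, an adsorbent clay whose dose is not given in the sources used here. Whether a group's pair of libraries stands for 2 mice is not stated, so each p-value refers to library-to-library spread, which may be technical. Values are normalised read counts, that is reads divided by 1 size factor per library. In each list of 2 values per group, replicate 1 comes before replicate 2.

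Collagens are the main structural proteins of the extracellular matrix. Their chains, built from Gly-X-Y repeats, wind around each other into a stiff helix inside the endoplasmic reticulum, where prolyl and lysyl residues are hydroxylated, and are then secreted, trimmed and crosslinked. Fibrillar collagens (types I, III and V in the gut wall) form the cables of the lamina propria and submucosa and are made mainly by fibroblasts. Type IV collagen forms the sheet-like network of basement membranes under epithelium and around vessels and muscle. Collagens XV and XVIII are multiplexins of the basement membrane zone, and the C-terminal fragment of collagen XVIII is endostatin. The other collagens include fibril-associated chains, the beaded filaments of type VI, the anchoring fibrils of type VII and collagens that span the cell membrane.

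The recovered reads summed to between 3741494 and 21481594 per library, the deepest being a DSS library and the shallowest a water library, and 1 read stood for a value of 0.335 to 2.27. Both DSS libraries (21481594 and 15212981 reads) were deeper than every other library (at most 8936826), so depth differed with group. Collagen genes took 0.158% and 0.197% of reads in water, 0.510% and 1.07% on DSS and 0.172% and 0.607% on DSS plus montmorillonite. The libraries of the last group lay apart (r = 0.905 between them, over log2 values of all genes), replicate 1 being closer to water (r = 0.959 and 0.949) and replicate 2 to DSS (r = 0.949 and 0.955). Markers of stratified squamous epithelium, a tissue of the anal canal and not of the colon, summed to 31.7 and 450.3 on water, 174 and 40793 on DSS and 115 and 7413 on DSS plus montmorillonite. They were high in DSS replicate 2 and in DSS plus montmorillonite replicate 2. Of the 8 markers, 5 were at 0 in water replicate 1, 1 in DSS replicate 1 and 2 in DSS plus montmorillonite replicate 1 (Krt5, Krt4, Krt6a, Trp63 and Sprr3 among these libraries). The simple epithelium markers summed to 44602 to 163072 over the libraries with none of the 8 at 0.

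Collagen genes of all 3 classes rose in DSS against water, and of those that passed the test Col7a1, Col18a1, Col4a1 and Col4a2 had the largest folds (28.8, 12.5, 6.72 and 6.48). In the limma fit of these 4 libraries 17 of the 39 rose and 0 fell at an adjusted p below 0.05. Among all 20287 genes tested 7.95% rose and 7.28% fell. By class 6 of 10 fibrillar, 4 of 8 basement membrane and 7 of 21 other collagens rose. The median log2 fold change was 1.51, 1.29 and 1.49 in these classes and 0.10 over all genes. In 28 of 39 collagens both DSS libraries were above both water libraries, and in 1, Col8a2, both were below. Among all genes tested the groups stood apart in that way in 34% (DSS above) and 28.5% (DSS below). The log2 fold change was positive in 35 of 39, next to 55.1% of all genes. At an unadjusted p under 0.05 there were 22 higher and 1 lower collagens, next to 17.9% and 14.7% of all genes. edgeR and DESeq2 on the recovered reads each called 20 higher and 0 lower, next to 8.2% and 6.5% of all genes by edgeR and 10.6% and 9.36% by DESeq2. The 17 calls rest on the spread of these 4 libraries: in a fit of all 6 libraries 0 of 38 passed (18 at an unadjusted p under 0.05, next to 23.0% of all genes). Without water replicate 2, 2 passed (Col5a3 and Col18a1, next to 1.59% of all genes), and without water replicate 1, DSS replicate 1 or DSS replicate 2, 0 passed (21, 20 and 16 at an unadjusted p under 0.05, next to 23.9%, 31.2% and 23.7% of all genes). Without DSS replicate 1 and without DSS replicate 2 the log2 fold change was 6.03 and 3.67 for Col7a1, 4.30 and 3.001 for Col18a1, 3.35 and 2.15 for Col4a1, and 3.34 and 2.05 for Col4a2. That of Col7a1 was also 5.82 and 3.88 without water replicate 1 and 2, and 4.11 with a pseudocount of 5. Scaling by library size only moved the median of all genes from 0.10 to 0.34 (log2), with 2138 genes higher and 862 lower in place of 1612 and 1477, and 19 collagens higher and 0 lower. Fold changes are on the log2(value + 1) scale, which understates the change of low genes.

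**Figure D1:**
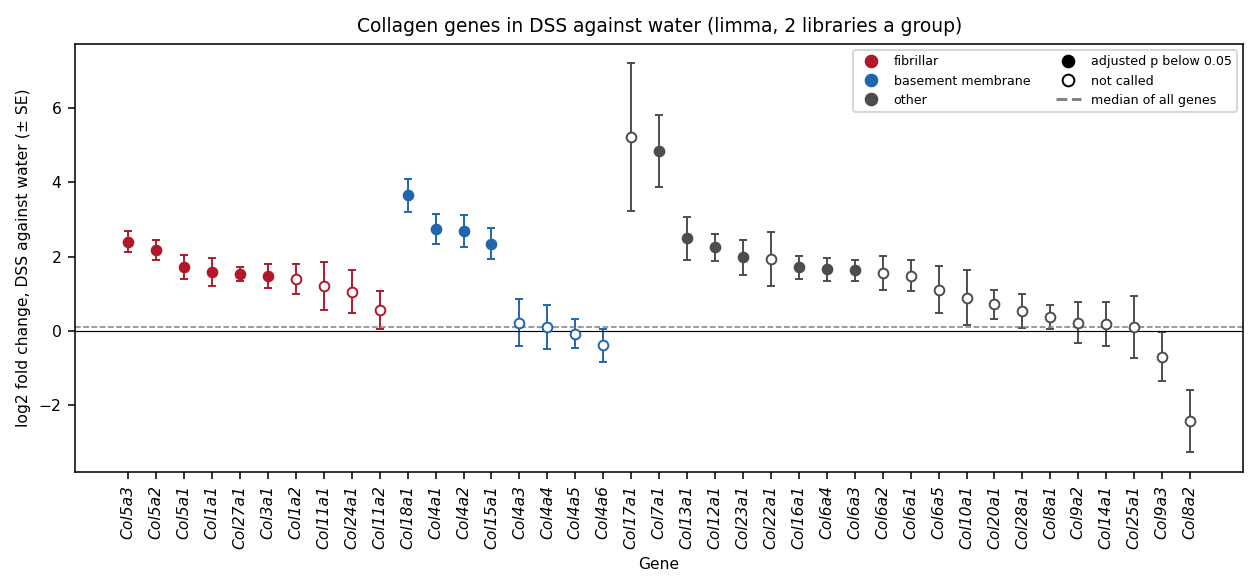
Log2 fold change of each of the 39 collagen genes in DSS against water (vertical axis, limma on 2 libraries a group, bars are the standard error), ordered within fibrillar, basement membrane and other collagens. Filled points mark the 17 genes with an adjusted p below 0.05, and in the basement membrane class 4 chains stand between 2.35 and 3.65 while 4 stand between -0.39 and 0.22.

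In each of the 10 fibrillar collagens the lower DSS library exceeded the higher water library, and 6 of them passed the test. Col3a1 (ENSMUSG00000026043.18, chromosome 1, 45311538 to 45349706, build GRCm38), the chain of type III collagen, was the most abundant collagen per length in all 6 libraries. Its normalised read counts were 5094 and 5856 on water, 10914 and 21109 on DSS and 5028 and 12862 on DSS plus montmorillonite. Both DSS libraries were above water, replicate 1 of DSS plus montmorillonite was at the level of water, and replicate 2 lay between the DSS libraries. Col3a1 rose with a log2 fold change of 1.47. The chains of type I collagen, the main tensile fibril, followed the same order. Col1a1 had 659 and 864 on water, 1527 and 3349.9 on DSS and 843 and 1644 on DSS plus montmorillonite and rose. Col1a2 had 1541 and 2099 on water, 3136 and 7208 on DSS and 1773 and 4215 on DSS plus montmorillonite and did not pass (limma adjusted p = 0.0682), although its groups did not overlap either. It passed with edgeR (adjusted p = 0.0453) and DESeq2 (0.00147).

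The type V chains, minor partners that set the start and width of fibrils, had log2 fold changes of 1.72 to 2.40, next to 1.40 to 1.58 for types I and III. That difference was not tested. Col5a2 had 555 and 582 on water, 1986 and 3357 on DSS and 735 and 2527 on DSS plus montmorillonite (DSS against water log2 2.18 ± 0.27 SE, 4.54-fold, limma adjusted p = 0.00881). Col5a1 had 491 and 603 on water, 1304 and 2464 on DSS and 555 and 1477 on DSS plus montmorillonite (log2 1.72 ± 0.32 SE, 3.29-fold, limma adjusted p = 0.0223). The Col5a3 chain, the scarcest of the type V genes per length, had 121 and 161 on water, 609.7 and 909 on DSS and 183 and 379.7 on DSS plus montmorillonite (log2 2.40 ± 0.27 SE, 5.30-fold, limma adjusted p = 0.00800). Its adjusted p was the smallest of any collagen. Col27a1, a fibrillar chain known mainly from cartilage, had 162 and 159 on water, 473 and 467 on DSS and 189.9 and 454 on DSS plus montmorillonite and rose with a log2 fold change of 1.54. Its water libraries, and its DSS libraries, were closer to each other than those of any other fibrillar gene. The scarce chains Col11a1, Col11a2 and Col24a1 had values of 2.27 to 36.3 over the 6 libraries and did not pass.

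The sequences just upstream of Col3a1 and Col5a3 are shown because these fibrillar genes, which both rose, carry different motifs there. Each is given for 150 bases before the RefSeq start site (GRCm38.p6), 5′ to 3′ on the gene's strand, with matches on either strand to TATAAA (the TATA box), CCAAT (the CCAAT box), GGGCGG (the GC box, which reads CCGCCC on the other strand) and TGACTCA (an AP-1 site) in capitals. No motif lies within another. The windows are chr1:45311388-45311537 on the plus strand and chr9:20815068-20815217 on the minus strand, and hold no annotated exon.
Col3a1: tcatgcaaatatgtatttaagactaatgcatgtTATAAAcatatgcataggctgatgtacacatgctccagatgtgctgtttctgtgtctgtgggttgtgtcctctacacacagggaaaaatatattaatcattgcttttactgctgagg
Col5a3: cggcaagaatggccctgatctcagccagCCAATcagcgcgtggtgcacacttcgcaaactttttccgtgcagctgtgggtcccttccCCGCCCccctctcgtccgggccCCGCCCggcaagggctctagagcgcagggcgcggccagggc
The Col3a1 window holds TATAAA, beginning 117 bases before the start, and none of the other motifs. The Col5a3 window holds CCAAT at 122 bases and GGGCGG, read on the other strand, at 63 and 41 bases. Promoters of 32 of the 39 collagens were found in the RefSeq table, as 34 windows. GGGCGG lay within 250 bases upstream in 21 of 34 (61.8%, against 32.7% of 32851 windows of all genes), CCAAT in 12 (35.3% against 33.8%) TATAAA in 5 (14.7% against 12.4%) and TGACTCA in 1 (2.94% against 4.46%). In the 15 windows of the collagens that rose GGGCGG lay in 60.0%, CCAAT in 46.7% and TATAAA in 13.3%. A match to these letters is a description and not a bound site.

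The basement membrane class split into chains that rose and chains that did not. Col4a1 (ENSMUSG00000031502.11, chromosome 8, 11198423 to 11312826) and Col4a2 (ENSMUSG00000031503.13, chromosome 8, 11312805 to 11449287) encode the α1 and α2 chains of the type IV network found in nearly every basement membrane. Col4a1 had normalised read counts of 830.3 and 1185 on water, 4406 and 10094 on DSS and 1251 and 7148 on DSS plus montmorillonite (DSS against water log2 2.75 ± 0.41 SE, 6.72-fold, limma adjusted p = 0.0133). Col4a2 had 553 and 805 on water, 2760.1 and 6787 on DSS and 876 and 4391 on DSS plus montmorillonite (log2 2.70 ± 0.43 SE, 6.48-fold, limma adjusted p = 0.0161). In both genes the DSS libraries were far above water and DSS plus montmorillonite replicate 2 was above DSS replicate 1. Col18a1, the chain that holds endostatin, had 199 and 329.8 on water, 2057 and 5048 on DSS and 296 and 3585 on DSS plus montmorillonite (log2 3.65 ± 0.46 SE, 12.5-fold, limma adjusted p = 0.00913). Among the 8 genes of the class it had the largest fold change. Col15a1, the other multiplexin, had 137 and 218 on water, 610.4 and 1292 on DSS and 159.7 and 529 on DSS plus montmorillonite (log2 2.35 ± 0.41 SE, 5.11-fold, limma adjusted p = 0.0189). Here DSS plus montmorillonite replicate 2 stayed below both DSS libraries.

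The other type IV chains did not follow. Col4a5, which pairs with Col4a6 in the basement membranes of smooth muscle, had 103 and 200.1 on water, 115 and 161 on DSS and 137 and 96.3 on DSS plus montmorillonite, and its groups overlapped (log2 -0.08 ± 0.39 SE, limma adjusted p = 0.913). Col4a6 ranged from 30.5 to 63.7 over the libraries and overlapped as well. Col4a3 and Col4a4, chains known from the kidney filter, had at most 13 and 20 reads in any library, so a change of modest size was not detectable at this depth. The 8 smooth muscle markers summed to 28785 and 48882 on water, 15629 and 28605 on DSS and 55696 and 21503 on DSS plus montmorillonite, with none at 0 in any library. Their part in the Col4a5 and Col4a6 values was not tested. With the type IV chains alone the median log2 fold change of the class was 0.16, since 4 of those 6 chains did not pass.

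The type IV genes lie in head-to-head pairs, and within each pair the fold changes in DSS against water differed by less than the SE of either gene. Col4a1 and Col4a2 start on opposite strands with start sites 21 bases apart, so that their first exons share 22 bases at chr8:11312805-11312826. Col4a4 and Col4a3 are divided by 71 bases without an annotated exon, at chr1:82586850-82586920. Both stretches are given on the plus strand from RefSeq (GRCm38.p6), with GGGCGG in capitals, to set the pair that rose beside the pair that stayed at trace level.
Col4a1 and Col4a2: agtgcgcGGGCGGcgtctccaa
Col4a4 and Col4a3: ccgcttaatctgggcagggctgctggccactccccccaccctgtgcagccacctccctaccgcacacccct
G and C made up 72.7% of the former and 69.0% of the latter, and the latter holds a match to none of the motifs searched. The log2 fold changes of Col4a1 and Col4a2 differed by 0.05, those of Col4a4 and Col4a3 by 0.12 (Col4a3 the higher) and those of Col4a6 and Col4a5, with 1309 bases between their starts, by 0.31 (Col4a5 the higher). Other collagens also lie side by side. Col6a1 and Col6a2 on chromosome 10 differed by 0.07 (log2), while Col3a1 and Col5a2 on chromosome 1, whose ends face each other, differed by 0.71. The counting tool is not given in the sources used here, and without strand the reads over the 22 shared bases of Col4a1 and Col4a2 cannot be told apart.

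**Figure D2:**
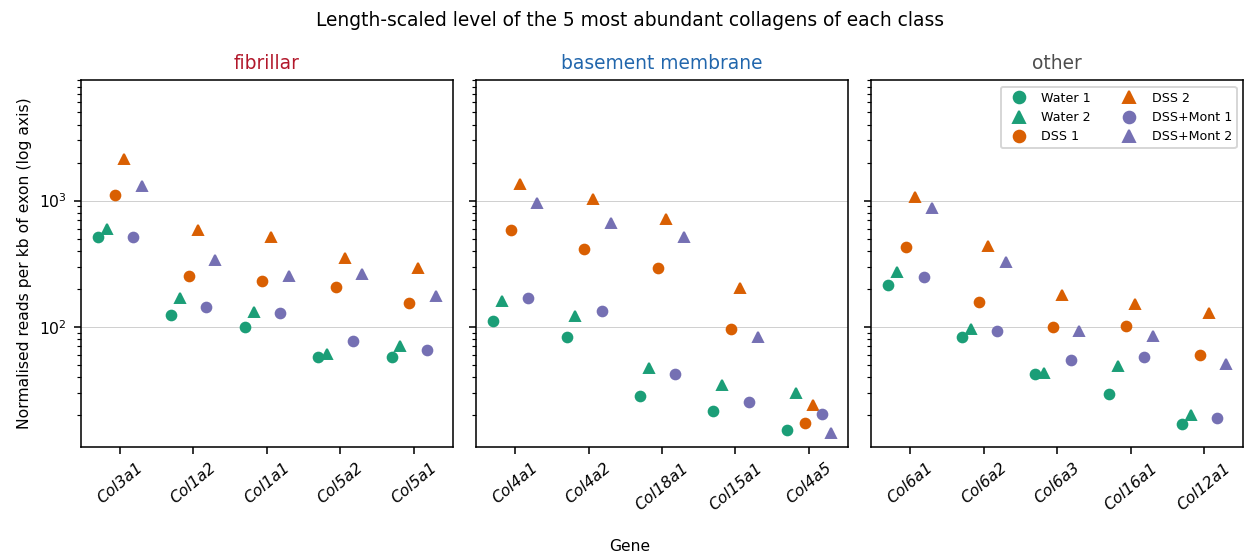
Normalised reads per kilobase of exon (log axis) of the 5 collagens of each class with the highest mean level, 1 point per library (circle replicate 1, triangle replicate 2). In all but Col4a5 the DSS libraries lie above both water libraries, and in the same genes DSS plus montmorillonite replicate 2 lies above both water libraries and above replicate 1.

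In the other class, type VI collagen, whose beaded filaments surround cells and basement membranes, was the most abundant. Col6a1 had 946 and 1185 on water, 1882 and 4709.9 on DSS and 1089 and 3797 on DSS plus montmorillonite, and Col6a2 had 686 and 794 on water, 1302 and 3643 on DSS and 769 and 2725 on DSS plus montmorillonite. Both DSS libraries were above water in each, replicate 2 much further than replicate 1, and neither passed (limma adjusted p = 0.0671 and 0.0737). edgeR called them higher (adjusted p = 0.0422 and 0.0442), as did DESeq2 (0.000912 and 0.000843). Col6a3, the largest chain of the type, had 506 and 519 on water, 1199 and 2118 on DSS and 652 and 1105 on DSS plus montmorillonite and rose by a log2 of 1.64. Col6a4 had 71.0 and 56.9 on water, 169 and 244 on DSS and 38.8 and 225 on DSS plus montmorillonite and rose by 1.66. In Col6a4 replicate 1 of DSS plus montmorillonite was the lowest library of all. Col6a5, a scarce chain, was at 11.4 to 58.3 and did not pass.

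Among the fibril-associated collagens, which decorate fibril surfaces, Col12a1 and Col16a1 rose. Col12a1 had 260.1 and 302 on water, 912 and 1960.2 on DSS and 289 and 774 on DSS plus montmorillonite (log2 2.25 ± 0.36 SE, 4.75-fold, limma adjusted p = 0.0162). Col16a1 had 198 and 327 on water, 682 and 1019 on DSS and 388 and 569 on DSS plus montmorillonite (log2 1.71 ± 0.32 SE, 3.27-fold, limma adjusted p = 0.0224), with both libraries of DSS plus montmorillonite above both water libraries and below both DSS libraries. Col14a1, of the same group, had 58.6 to 181 over the libraries and overlapped between groups. Col20a1 and Col22a1 were above water in both DSS libraries without passing (adjusted p = 0.259 and 0.129), at 28.8 to 63.6 over the 6 libraries for Col20a1. Col9a2 and Col9a3, chains of cartilage collagen IX, were at 5.75 to 20.5.

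Collagens of the epithelial anchoring zone stood far apart between the replicates of DSS. Col7a1, the chain of anchoring fibrils, had 11.5 and 2.27 on water, 80.4 and 417 on DSS and 14.4 and 138 on DSS plus montmorillonite (log2 4.85 ± 0.96 SE, 28.8-fold, limma adjusted p = 0.0264). Col17a1, the hemidesmosome collagen of basal keratinocytes, had 0 and 13.6 on water, 20.1 and 956 on DSS and 5.75 and 191 on DSS plus montmorillonite and did not pass (log2 5.21 ± 1.99 SE, limma adjusted p = 0.134). It was singled out after its values were seen. The high libraries of Col17a1, DSS replicate 2 and DSS plus montmorillonite replicate 2, were those with high squamous markers, whose sums were 40793 and 7413 against 31.7 to 450.3 in the other 4. All 8 squamous markers had reads in those 2 libraries, and also in water replicate 2, where the sum was 450.3 and Col17a1 was at 13.6. In DSS replicate 1 the sum was 174 while Col7a1 was at 80.4. The part of the squamous markers in the Col7a1 and Col17a1 values was not tested.

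Of the transmembrane collagens 2 rose. Col13a1, found at cell-matrix contacts, had 12.5 and 6.82 on water, 39.2 and 82.5 on DSS and 12.9 and 52.7 on DSS plus montmorillonite (log2 2.50 ± 0.57 SE, 5.64-fold, limma adjusted p = 0.0384), and Col23a1 had 23.0 and 22.7 on water, 63.7 and 137 on DSS and 47.5 and 185 on DSS plus montmorillonite (log2 1.98 ± 0.47 SE, 3.96-fold, limma adjusted p = 0.0409). DSS plus montmorillonite replicate 2 was the highest library for Col23a1. Col25a1 had at most 9 reads in a library. Of the short-chain collagens, Col8a1, a chain of vessel walls, had 70.9 to 145 over the libraries and overlapped. Col8a2 had 6 and 9 reads in water and 7 and 1 in the deeper DSS libraries, or values of 5.76 and 20.5 on water, 2.35 and 0.479 on DSS and 8.63 and 3.63 on DSS plus montmorillonite (log2 -2.44, limma adjusted p = 0.104). It was named after its values were seen, as the only collagen with both DSS libraries below water. Col10a1, a marker of hypertrophic cartilage, had 10 reads over all 6 libraries, and Col28a1 was at 15.9 to 56.1.

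**Figure D3:**
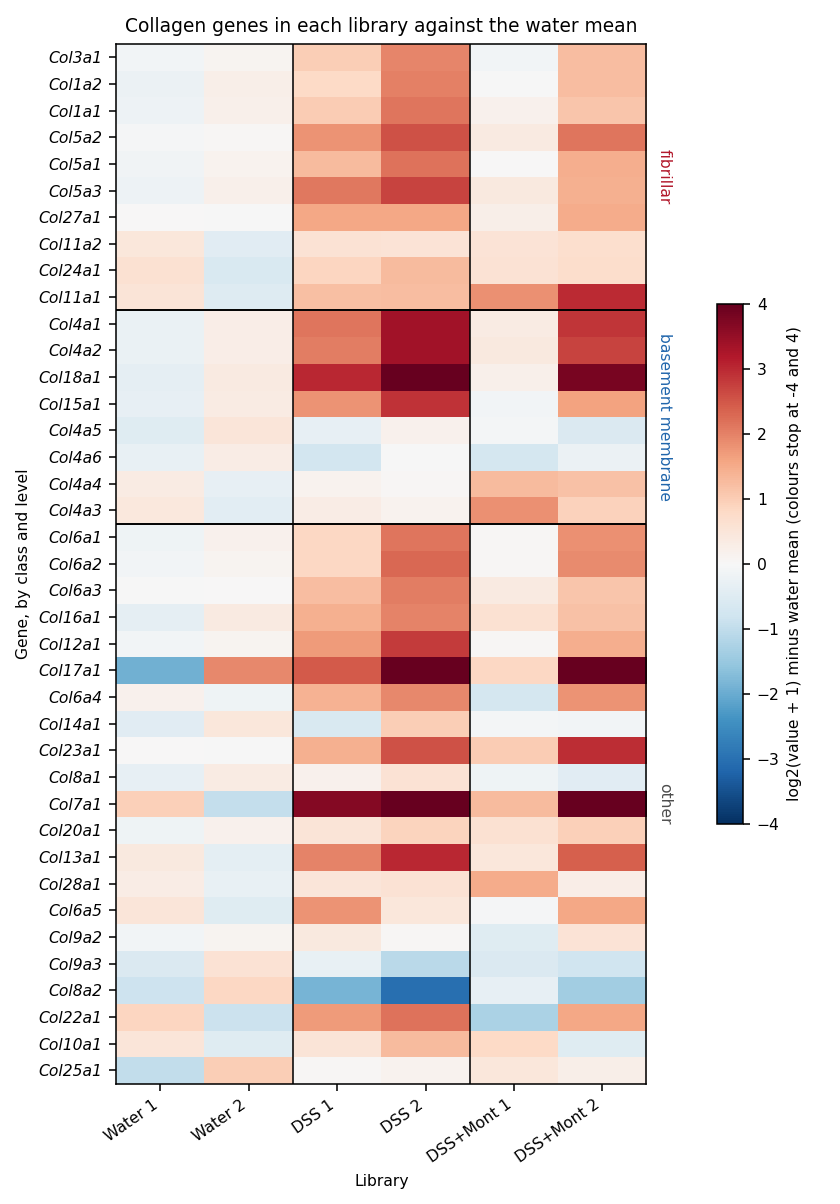
Each row is a collagen gene and each column a library; colour is log2(value + 1) minus the mean of the water libraries, with a colour scale that is capped at both ends. Rows are grouped by class and ordered by level per length. DSS replicate 2 is the highest library in 24 of 39 rows, and the lowest is water replicate 1 in 17 and water replicate 2 in 12. How often these libraries are the highest or lowest over all genes was not counted.

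Within a library the ratio of partner chains does not depend on the size factor, and among chains that join in 1 type it varied from 1.14 to 2.19 times between libraries. Ratios are of reads per kilobase of exon. Col4a1 over Col4a2 was 1.33 and 1.31 on water, 1.42 and 1.32 on DSS and 1.27 and 1.44 on DSS plus montmorillonite, a range of 1.14 times from the lowest to the highest library. Col6a1 over Col6a2 had a range of 1.15 times, from 2.46 to 2.84, and Col1a1 over Col1a2 had 1.25 times, from 0.739 to 0.922. The ratio varied more for Col6a3 over Col6a1, with 0.107 to 0.233 (2.19 times), and for Col4a5 over Col4a6 (1.96 times). Among the type V chains Col5a1 over Col5a2 was 1.001 and 1.17 on water, 0.742 and 0.829 on DSS and 0.853 and 0.660 on DSS plus montmorillonite, lower in both DSS libraries than in both water libraries. Col5a3 over Col5a1 was 0.307 and 0.334 on water, 0.583 and 0.460 on DSS and 0.410 and 0.321 on DSS plus montmorillonite, higher in both DSS libraries. Chains of different type IV molecules did not keep their ratio. Col4a1 over Col4a5 was 7.28 and 5.33 on water, 34.5 and 56.4 on DSS and 8.24 and 66.8 on DSS plus montmorillonite, a range of 12.5 times. Col4a3 and Col4a4 were too scarce for a ratio.

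The ratio of Col4a1 and of Col18a1, which rose, to the fibrillar chains Col3a1 and Col1a1 was higher in DSS. Ratios to the type V chains are not given, and these chains had larger log2 fold changes (1.72 to 2.40) than Col3a1 and Col1a1 (1.47 and 1.58). The higher ratio does not extend to every basement membrane chain, since 4 of 8 did not pass and the class median (log2 1.29) was below the fibrillar one (1.51). Col4a1 over Col3a1 was 0.214 and 0.266 on water, 0.531 and 0.629 on DSS and 0.327 and 0.731 on DSS plus montmorillonite. Col18a1 over Col3a1 was 0.0545 and 0.0787 on water, 0.263 and 0.334 on DSS and 0.0824 and 0.390 on DSS plus montmorillonite. Against Col1a1 the ratio of Col4a1 was 1.11 and 1.21 on water, 2.54 and 2.65 on DSS and 1.31 and 3.82 on DSS plus montmorillonite. In these ratios both DSS libraries were above both water libraries, DSS plus montmorillonite replicate 2 was the highest library, and replicate 1 was closer to water than to DSS. The 95% counting interval of Col4a1 over Col3a1 was 0.242 to 0.292 in the higher water library and 0.520 to 0.542 in the lower DSS library. Such intervals cover counting error only. With 2 libraries against 2 the smallest p of an exact two-sided permutation test is 0.333, so none was run. Summed per length, the collagens reached 1606 and 2019 on water, 4461 and 9704 on DSS and 1913 and 6265 on DSS plus montmorillonite. The basement membrane class made up 16.6% and 19.8% of that sum in water, 31.8% and 34.3% on DSS and 20.6% and 35.7% in DSS plus montmorillonite, while the fibrillar class went from 55.8% and 52.9% in water to 46.9% and 41.8% in DSS.

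**Figure D4:**
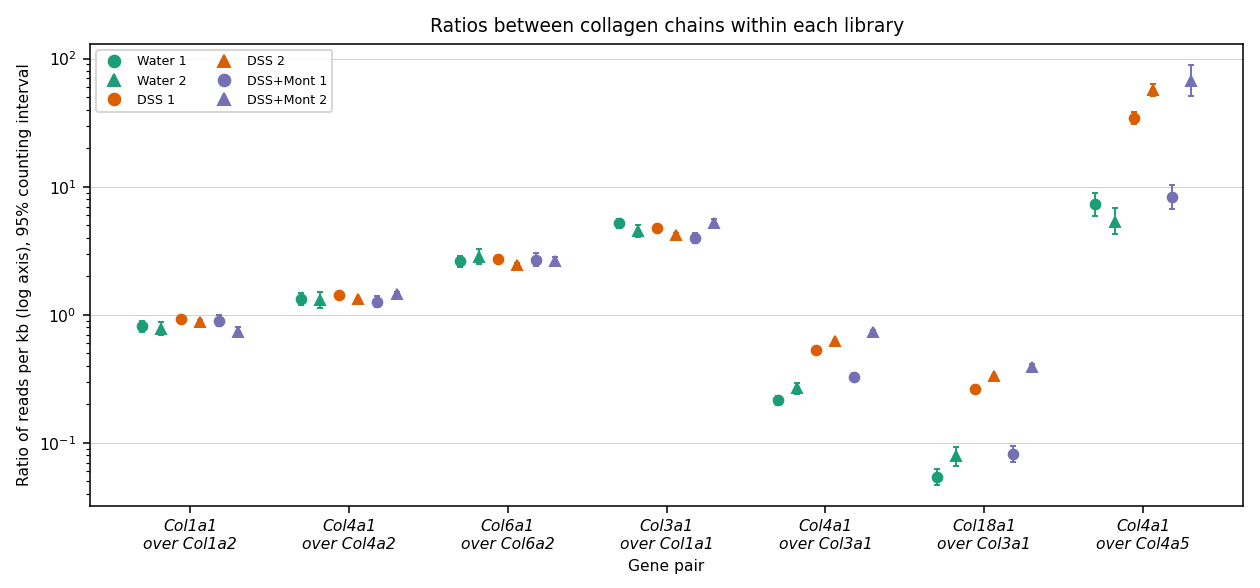
Ratio of reads per kilobase between pairs of collagen genes (log axis) in each library, with 95% counting intervals as bars. Of the pairs drawn, Col4a1 over Col4a2 runs from 1.27 to 1.44, while Col4a1 over Col4a5 runs from 5.33 to 66.8.

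DSS plus montmorillonite was compared with water and with DSS to ask where collagen expression stood when the clay was given with DSS. Its libraries gave different answers. In replicate 1 the median difference from the water mean (log2) was 0.30 for fibrillar, 0.27 for basement membrane and 0.06 for other collagens. In replicate 2 it was 1.34, 1.38 and 1.16. The DSS libraries stood at 1.10 and 1.98, 1.05 and 1.53, and 0.83 and 1.93. Of the 17 collagens that rose in DSS, replicate 1 was below both DSS libraries in 17 and within or below the water values in 7. Replicate 2 was above both water libraries in 17, below both DSS libraries in 6, between them in 10 and above both in 1, Col23a1. The 17 were picked for high DSS values, so part of this order follows from the choice. Over all 39 collagens replicate 1 was below both DSS libraries in 26, between them in 7 and above both in 6. Replicate 2 was above both water libraries in 30, between them in 5 and below both in 4. The share of all genes in these positions was not counted. Replicate 2 was above replicate 1 in most collagens of the other groups as well. Among collagens with at least 20 reads in both libraries of a group, it was so in 19 of 21 on water and 29 of 32 on DSS. In DSS plus montmorillonite it was so in 20 of 23. The median ratios were 1.34, 1.83 and 2.56 in this order of groups, and the ratios of all genes were not taken.

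Against water limma called 0 of 38 collagens in DSS plus montmorillonite (smallest adjusted p = 0.642), with 3 at an unadjusted p under 0.05 (Col11a1, Col16a1 and Col23a1), next to 7.58% of all genes, which is about the same share. edgeR and DESeq2 called 0 of the collagens as well. At an unadjusted p under 0.05 edgeR had 7 of 38 collagens and DESeq2 9, next to 1582 and 1397 of 19785 genes. With the replicate block there were 11, next to 1618 genes. In these 3 settings the share of collagens was larger than that of all genes, unlike in the main limma fit. Of all genes tested limma called 0% in either direction, edgeR 0, and DESeq2 87 higher and 113 lower. In 15 collagens both libraries were above both water libraries and in 1 both were below, next to 21.9% and 19.6% of all genes tested. The log2 fold change was positive in 32 of 38 collagens and in 53.5% of all genes. The 15 higher collagens included Col4a1, Col4a2, Col5a2, Col5a3, Col16a1 and Col23a1. Among them was also the scarce Col11a1, with 5.76 and 2.27 on water, 9.72 and 10.1 on DSS and 15.8 and 36.3 on DSS plus montmorillonite, whose highest values of all were in this group and which was named after they were seen. The median log2 fold change was 0.69, 1.30 and 0.75 in the fibrillar, basement membrane and other classes and 0.05 over all genes. Without replicate 2 of DSS plus montmorillonite these medians were 0.30, 0.27 and 0.05, and without replicate 1 they were 1.34, 1.38 and 1.31.

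Against DSS limma again called 0 of 39 (smallest adjusted p = 0.674), as did edgeR and DESeq2, with 1 at an unadjusted p under 0.05, Col5a3, next to 7.22% of all genes. At that threshold edgeR had 2 collagens, DESeq2 3 and the replicate block 16, next to 1336, 1488 and 2743 of 20316 genes. Of all genes tested limma called 0% in either direction, edgeR 0, and DESeq2 54 higher and 22 lower. In 9 collagens both libraries were below both DSS libraries, next to 20.7% of all genes tested, and in 5 both were above, next to 19.3%. The log2 fold change was positive in 10 of 39 collagens and in 45.6% of all genes. The lower ones were Col5a3, Col24a1, Col27a1, Col15a1, Col6a3, Col12a1, Col16a1, Col22a1 and Col8a1, and the higher ones were Col4a3, Col4a4, Col11a1, Col8a2 and Col25a1. The highest of the latter in level, Col11a1, had at most 36.3. The median log2 fold change was -0.86, -0.69 and -0.59 in the 3 classes and -0.07 over all genes. Without replicate 1 of DSS plus montmorillonite the basement membrane median was 0.12, and without replicate 2 it was -1.31. Of the leave-out fits of this comparison, that without replicate 2 called 1 collagen lower, Col18a1 (log2 -3.44 ± 0.56 SE, limma adjusted p = 0.0427). That fit called 2.42% of all genes lower, about the share that 1 of 39 is, and its spread comes from the DSS libraries alone, the lone other library being assumed to vary like them. Both comparisons share libraries with DSS against water, so they are not independent of it.

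Genes that make, cut and bind collagen were counted in lists set beside the classes, in DSS against water with the same 7.95% of all genes rising and 7.28% falling. Of 22 genes of chain folding and modification 10 rose and 1 fell, with a median log2 fold change of 1.24. Plod2, a lysyl hydroxylase that prepares crosslinks, had 108 and 141 on water, 387 and 501 on DSS and 171 and 525 on DSS plus montmorillonite (3.56-fold, log2 1.83 ± 0.25 SE, limma adjusted p = 0.0112). Tram2, a helper of type I collagen synthesis, rose 3.22-fold. The gene that fell, Creb3l1, a membrane-bound transcription factor, had 742 and 914 on water, 383 and 328 on DSS and 982 and 379.7 on DSS plus montmorillonite and was named after its values were seen. Of 12 genes of procollagen cleavage and crosslinking 5 rose and 0 fell (10 higher and 0 lower at an unadjusted p under 0.05, and 5 and 7 higher with 0 lower by edgeR and DESeq2), among them the lysyl oxidases Loxl2 (4.58-fold, log2 2.19 ± 0.21 SE, limma adjusted p = 0.00597) and Lox (6.86-fold). Lox had 97.9 and 100.1 on water, 441 and 1064 on DSS and 112 and 932 on DSS plus montmorillonite, so that replicate 2 of DSS plus montmorillonite stood with DSS and replicate 1 with water.

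Of 9 genes of collagen breakdown 7 rose and 0 fell (also by edgeR and DESeq2, and at an unadjusted p under 0.05), with a median log2 fold change of 1.97. Mmp13, an interstitial collagenase, had 74.9 and 72.8 on water, 3181 and 4721 on DSS and 50.3 and 3986 on DSS plus montmorillonite, and Mmp9, a gelatinase, had 2.88 and 2.27 on water, 303 and 523 on DSS and 2.88 and 339.8 on DSS plus montmorillonite. As in Col3a1, replicate 2 of DSS plus montmorillonite lay between the DSS libraries and replicate 1 at or below the water values. Of 10 collagen receptors 4 rose and 0 fell (1 lower at an unadjusted p under 0.05, and 4 higher with 0 lower by edgeR and by DESeq2), among them Ddr2, a tyrosine kinase receptor for fibrillar collagen (3.20-fold, log2 1.68 ± 0.17 SE, limma adjusted p = 0.00628), and Itga1, the integrin α1 chain that binds type IV collagen (2.71-fold). Of 14 fibril-associated proteoglycans and glycoproteins 6 rose and 1 fell. Dcn, decorin, had 2377 and 2690.4 on water, 17545 and 22978 on DSS and 2546 and 13222 on DSS plus montmorillonite (7.94-fold, log2 2.99 ± 0.20 SE, limma adjusted p = 0.00295), and Thbs1, thrombospondin 1, rose 17.4-fold. Ogn, osteoglycin, fell to 0.325 of the water level and was named after its values were seen.

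Laminins, nidogens and perlecan, the partners of type IV collagen in basement membranes, rose in 9 of 15 genes and fell in 0 (12 higher and 0 lower at an unadjusted p under 0.05, and 9 and 12 higher with 0 lower by edgeR and DESeq2), with a median log2 fold change of 1.57. Lama1, the laminin α1 chain, had 26.9 and 25.0 on water, 295 and 442 on DSS and 24.5 and 369 on DSS plus montmorillonite (13.4-fold, log2 3.75 ± 0.31 SE, limma adjusted p = 0.00456), and Lamb1, the β1 chain, rose 5.82-fold (adjusted p = 0.00774, limma). In DSS plus montmorillonite limma called 0 of the 82 genes of these lists against water (8 higher and 1 lower at an unadjusted p under 0.05), edgeR 0 and DESeq2 2 higher. At an unadjusted p under 0.05 edgeR had 14 higher and DESeq2 25, with 0 lower by each. Among all 19785 genes limma had 7.58% at that threshold, edgeR 1582 genes and DESeq2 1397. DESeq2 called 87 of all genes higher. Against DSS limma, edgeR and DESeq2 called 0. At an unadjusted p under 0.05 limma had 0 higher and 4 lower, edgeR 1 and 4, and DESeq2 1 and 3, next to 7.22% of all genes by limma. Members that passed by limma in DSS against water lost their calls in the fit of all 6 libraries and in those without DSS replicate 1 or without DSS replicate 2, in which no gene of the table passed. By its median against the water mean, each list stood lower in replicate 1 of DSS plus montmorillonite than in DSS replicate 1, and replicate 2 stood between the DSS libraries. For the receptors these values lay close, at 0.49 and 0.60 against 0.57 in DSS replicate 1.

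**Figure D5:**
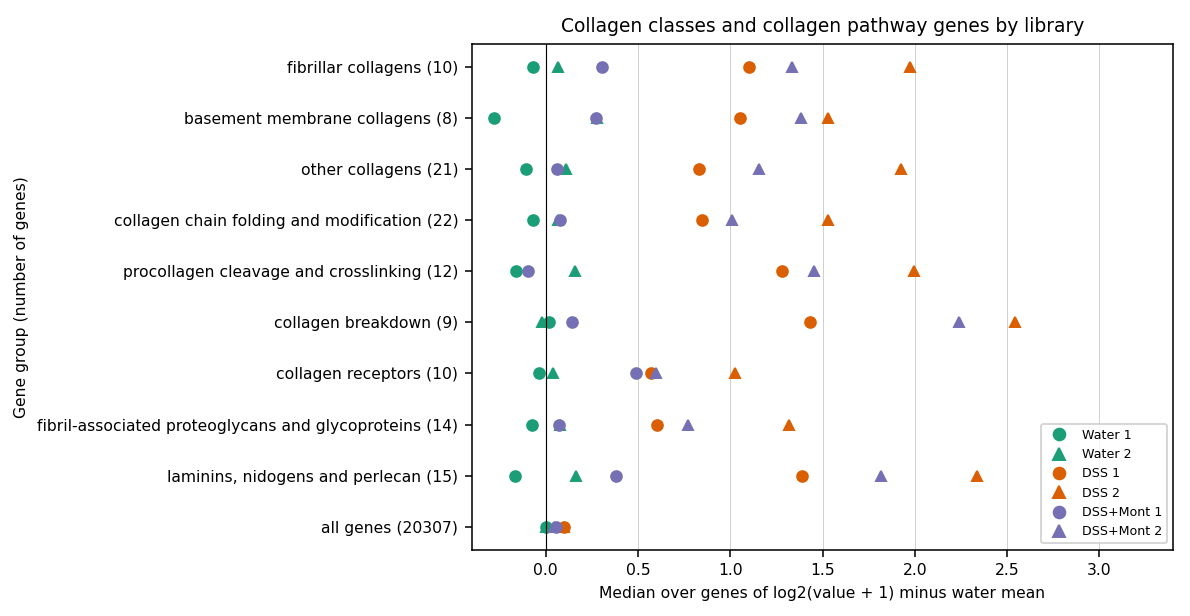
Median over the genes of each group of log2(value + 1) minus the water mean, 1 point per library, for the collagen classes, the pathway lists and all genes tested. For collagen breakdown the DSS libraries stand at 1.43 and 2.54 and DSS plus montmorillonite at 0.14 and 2.24, and for all genes those libraries lie between 0.04 and 0.10.

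Markers of fibroblasts, endothelium and pericytes moved with the collagens. Those of smooth muscle did not: in DSS 0 of 8 rose and 1 fell (limma), with a median log2 fold change of -0.89. edgeR called 1 of the 8 lower and DESeq2 4, next to 6.5% and 9.36% of all genes. Both DSS libraries were below both water libraries in 6 of the 8, next to 28.5% of all genes. The 8 fibroblast markers summed to 4282 and 4912 on water, 22144 and 29211 on DSS and 4440.0 and 18362 on DSS plus montmorillonite, and 4 of them rose in DSS (limma). Dcn alone made up 2377 and 2690.4 of these sums on water and 17545 and 22978 on DSS, and the median log2 fold change of the 8 was 1.44. The 8 endothelial markers summed to 1016 and 1201 on water, 3962 and 7769.7 on DSS and 1096 and 4471 on DSS plus montmorillonite, with 7 rising, and the 5 pericyte markers to 1321 and 1526 on water, 5233 and 7878 on DSS and 1673 and 5685 on DSS plus montmorillonite, with 4 rising. Dcn, Lum and Dpt are in the fibroblast list and in the list of proteoglycans, and Fap is in the former and in the list of collagen breakdown. None of these markers was at 0 in any library. In bulk tissue, more cells of a type and more collagen RNA per cell cannot be told apart, and the part of these cells in the collagen values was not tested. Markers of simple epithelium fell in 8 of 8 genes and leukocyte markers rose in 7 of 8. Of 5 mesothelium markers 2 rose and 1 fell, and of 6 enteric glia markers 1 rose and 1 fell. Of 3 adipocyte markers 1 rose and 0 fell, and of 2 cartilage markers 0 rose and 1 fell. The limma counts of these markers, in DSS against water, stand next to 7.95% of all genes rising and 7.28% falling. In the fit of all 6 libraries no gene of the table passed. Of 6 cartilage markers 2 were in the table, Comp and Sox9. Skeletal muscle markers, foreign to the mucosa, summed to 637 and 273 on water, 134 and 3224 on DSS and 4196 and 359.7 on DSS plus montmorillonite (Myh4, Myh1 or Myot at 0 in both water libraries and DSS replicate 1), so that DSS replicate 2 and DSS plus montmorillonite replicate 1 were high.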

How the data were processed

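The deposited table gives, for 20533 genes in 6 libraries, a signal that the authors normalised: each value is a read count divided by 1 size factor per library, found from the values, since 100% were whole reads within 0.01 read. Which aligner, counter and normalising tool made it is not given in the sources used here. Reads were placed on mm10 (GRCm38), per the submitters' processing notes. Of the IDs, 20500 were found in GENCODE M21. The members and lists were chosen with earlier results of these data known. limma 3.58.1 (R 4.3.3) with an intensity trend was fitted on log2(value + 1) over the 4 libraries of each comparison, for genes with a mean of at least 1, two-sided, with Benjamini-Hochberg adjustment over all genes and a threshold of 0.05. The recovered counts were also tested with edgeR 4.0.16 (quasi-likelihood) and DESeq2 1.42.0. In DSS against water edgeR called 1664 genes higher and 1319 lower. Values per library are given for the 5 members of each class with the highest mean level per length and for called members. Fold, SE and adjusted p are given for the 12 called members with the largest change, and 2 called genes with the smallest p are named per pathway list. Other genes named with values were chosen after these were seen. Class medians carry no test. Alternatives were another pseudocount, filter, scaling, tool, class definition, a fit of 6 libraries, a replicate block and leaving out each library. The limma fit was tested on simulated data.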

Additional observations from a re-analysis of the deposited data

How the results depend on the processing

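In DSS against water the 17 collagens kept their call under both pseudocounts, no filter, a mean of at least 10, library-size and TMM scaling, edgeR, DESeq2 and the replicate block, with 17 to 21 collagens higher. The fit of all 6 libraries called 0, and leaving out 1 library called 0 to 2. The basement membrane median (log2 1.29) was 2.52 at a mean of at least 10, where fewer genes are tested, 0.16 for type IV alone and 2.35 with Col7a1 added. Leaving out 1 library gave fibrillar medians of 1.10 to 1.98. In DSS plus montmorillonite against water it gave 0.30 to 1.34 for fibrillar, 0.27 to 1.38 for basement membrane and 0.052 to 1.31 for other collagens. Against DSS it gave -1.42 to -0.21 for fibrillar, -1.31 to 0.12 for basement membrane and -1.12 to -0.11 for other collagens, and 0 to 1 collagens lower. The cause was not tested beyond these settings. Library-size scaling moved the median of all genes in DSS plus montmorillonite against DSS from -0.07 to -0.33. No direction of the 17 was reversed. Replicate numbers are shared by all groups, but the labels name no shared animal or batch. Deviations of same-numbered libraries correlated at 0.196 (water and DSS), 0.160 (water and DSS plus montmorillonite) and 0.409 (DSS and DSS plus montmorillonite) over 13914 genes, and with the replicate block 21 collagens were higher (the 17 with Col1a2, Col6a1, Col6a2 and Col17a1, the last at a limma adjusted p of 5.1e-05), with 2754 genes higher and 2385 lower in all in place of 1612 and 1477. Depth limits the scarce chains: in the shallowest library 1 read is a value of 2.27.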
